A study of Mus musculus with 6 samples.

Results

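The transcripts described here are those of the eukaryotic translation initiation factors, taken as every protein-coding GENCODE M21 gene whose symbol begins with Eif and a digit from 1 to 6. The rule found 55 genes among the 55487 identifiers of the read-count table, and it used no measured value. Polyadenylated RNA came from testes of mice at postnatal day 19, with 3 control and 3 dsfb libraries. Both groups are labelled P19, and the dsfb genotype is, per the series title, homozygous for SFB alleles of both Hormad1 and Hormad2, genes for proteins that coat the axes of meiotic chromosomes. The labels give no further allele, strain or treatment for either group. Replicates are taken as separate animals, since the design text speaks of testes of different mice.

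Translation initiation brings the ribosome and the initiator tRNA to the start codon of an mRNA. The eIF4F complex, made of the cap-binding protein eIF4E, the scaffold eIF4G and the helicase eIF4A, loads the mRNA, eIF3 holds the factors on the small ribosomal subunit, and eIF2 delivers the initiator tRNA. Phosphorylation of the alpha subunit of eIF2 and sequestration of eIF4E by the 4E-binding proteins are the main ways in which cells lower initiation. Male germ cells store many mRNAs for later use, and several factors exist as paralogs of which one is used more by germ cells. In mice the scaffold gene Eif4g3 is needed by male germ cells to leave meiotic prophase, and the Y-linked Eif2s3y is needed for the proliferation of spermatogonia.

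The initiation factors did not move as one group. Of the 55 members, all of which passed the low-count filter, 25 fell and 12 rose in dsfb testes, while 18 did not pass the test (edgeR quasi-likelihood, Benjamini-Hochberg adjusted p under 0.05 over all 19826 tested genes). A share of 67.3% was thus called, against a background of 66.9% of all tested genes, of which 30.7% of genes were higher and 36.2% lower in dsfb. The share is near the background, so the number of calls says nothing particular about these genes. The median log2 fold change of the members was -0.20, against 0.02 over all genes. Changes of at least 2-fold were fewer, with 9 falls and 2 rises, or 11 of 55 members, where 39.9% of all genes were called with such a change. The TMM-scaled counts, expressed as CPM (counts divided by the scaled library size in units of 1e+06), of the groups did not overlap in 41 of 55 members, against 74.7% of all genes.

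The split between rises and falls depended on how libraries were scaled. Upper-quartile scaling gave 21 rises and 15 falls (58.3% of calls higher) and library size as the only scaling gave 25 rises and 15 falls (62.5% higher), against 32.4% higher with TMM. Over all genes, rises and falls numbered 6080 and 7176 with TMM, 8187 and 6126 with upper-quartile scaling, and 8936 and 5732 with library size only, so most calls were rises under the latter scalings there too. Over all genes, the median log2 fold change went up by 0.28 and 0.40 under these scalings. Of the 18 members that did not pass with TMM, 9 passed as higher with the former and 13 with the latter. A set of 25 members kept both direction and call in each of 15 alternative settings. Those that rose were Eif1ax, Eif2s3x, Eif2s3y, Eif2b3, Eif2ak3, Eif2ak4, Eif4a1, Eif4ebp1, Eif4ebp2 and Eif4g1. Those that fell were Eif1, Eif1b, Eif5, Eif2s1, Eif2b4, Eif2b5, Eif3b, Eif3c, Eif3e, Eif3f, Eif3h, Eif3k, Eif4e2, Eif4g3 and Eif5a.

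**Figure D1:**
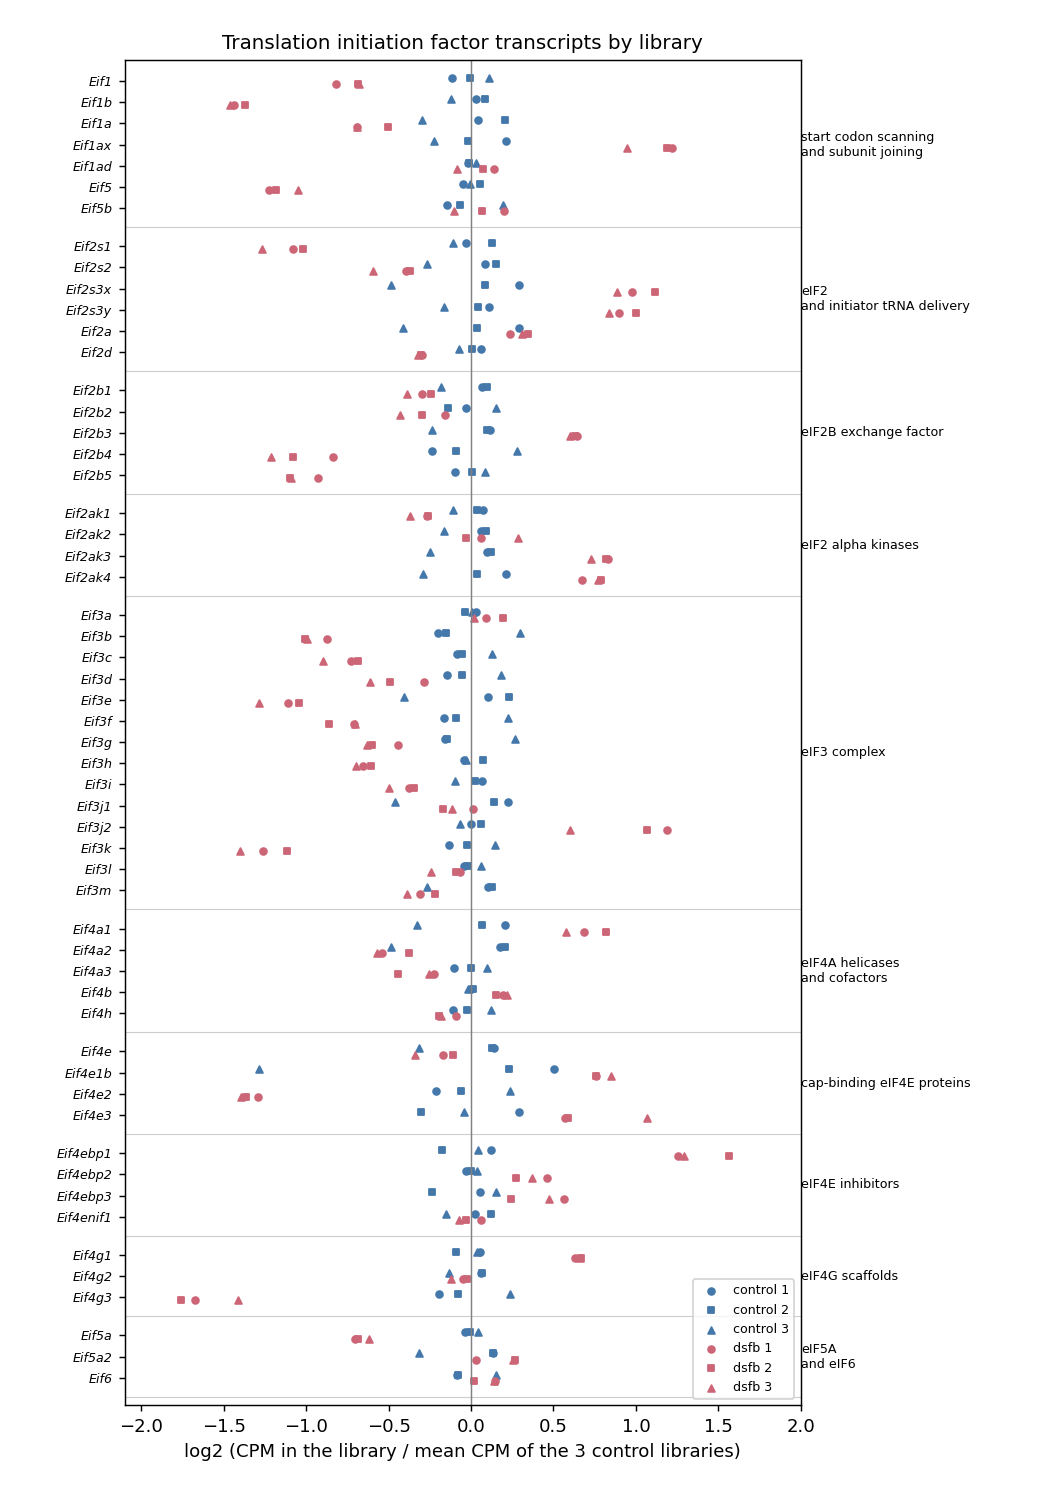
Each point is 1 library, placed on the horizontal axis by the log2 ratio of its CPM to the mean CPM of the 3 control libraries, with the 55 members grouped by role on the vertical axis. Eif4g3 and Eif1b lie furthest to the left and Eif4ebp1 and Eif1ax furthest to the right by their dsfb means, with no overlap with the control points.

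The libraries held 15335130 to 27707291 counted reads, with the 3 control libraries the deeper ones, and the members took 0.921 to 0.985% of the counts in control and 0.974 to 1.0% in dsfb. The TMM factors were 0.844 to 0.897 in control and 1.14 to 1.16 in dsfb. With that scaling the members summed to 10963 to 11248 CPM in control and 8396 to 8842 CPM in dsfb. Libraries are given in the order of replicates 1, 2 and 3. Hormad1 was at 446, 486 and 209 in the control libraries and 217, 246 and 243 in the dsfb libraries (CPM) and missed the threshold (adjusted p = 0.0597, edgeR), while Hormad2 fell 1.95-fold. Counts over whole genes do not check the altered alleles. Markers of some cell types differed strongly between the groups. The part of cell types in the differences of the initiation factors was not tested. All 8 mid to late pachytene markers fell. Their summed level went from 6177 to 8557 CPM in control to 36.3 to 46.1 CPM in dsfb. The 6 tested spermatid markers fell too. The sum over all 7 listed, tested or not, went from 114 to 406 CPM in control to 6.83 to 8.89 CPM in dsfb. All 8 Sertoli markers rose, from 1917 to 2623 CPM to 4575 to 4857 CPM, and 5 of 6 spermatogonial markers rose, from 176 to 249 CPM to 390.5 to 426 CPM. The early meiotic list had 2 rises and 1 fall among 6 genes (898 to 1882 CPM in control, 1018 to 1113 CPM in dsfb). That list includes Hormad1, itself altered in dsfb, so the sum is not independent of the genotype. Rises numbered 2 of 5 for Leydig, 2 of 4 for peritubular myoid and 2 of 4 for macrophage markers. They numbered 1 of 4 for endothelial and 0 of 3 for blood markers. These lists had 0 falls, where 30.7% of all tested genes were higher and 36.2% lower. Of the immediate early genes 4 of 5 rose, and 0 of 4 mitochondrial transcripts passed. A difference in RNA handling between the groups was not tested. No marker was at 0 in all libraries of a group. In bulk tissue, fewer cells of a type and less RNA per cell cannot be told apart.

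Within the controls, replicate 3 stood apart from replicates 1 and 2. For 25 of the 55 members it lay more than 0.25 log2 units from the mean of the other controls, below it for 17 and above it for 8. The median absolute deviation of that library was 0.24 log2 units for the members and 0.34 over all tested genes. Without that library 28 members fell and 12 rose. The median coefficient of variation of the members was 10.5% in control and 6.45% in dsfb, against 17.5% and 10.7% over all tested genes.

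Among the eIF4G scaffolds, which bridge the cap-binding protein, the helicase and eIF3, Eif4g3 and Eif4g1 moved in opposite directions. Eif4g3 (plus strand of chromosome 4, bases 137993022 to 138208508) was at 576, 622 and 777 in the control libraries and 206, 194 and 247 in the dsfb libraries (CPM). It fell 3.05-fold, the largest fall of the family (log2 fold change -1.61, SE 0.15, edgeR adjusted p = 6.04e-05), and the highest dsfb library lay far below the lowest control. Eif4g1 (plus strand of chromosome 16, bases 20668313 to 20692884), the scaffold used by most cells, was at 315, 284 and 311 in the control libraries and 468, 481 and 479.6 in the dsfb libraries (CPM). It rose 1.57-fold (log2 fold change 0.65, SE 0.08, edgeR adjusted p = 0.000335), again with no overlap between the groups. Eif4g2, which encodes a related scaffold without the eIF4E-binding site, was at 1338, 1342 and 1171 in the control libraries and 1242, 1263 and 1181 in the dsfb libraries (CPM). Its groups overlapped and the test was not passed (log2 fold change -0.06, SE 0.10, edgeR adjusted p = 0.606), with a sign that turned under upper-quartile and library-size scaling.

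The count ratio of 2 genes within a library does not depend on how libraries are scaled. The ratio of Eif4g3 to Eif4g1 counts was 1.83, 2.19 and 2.50 in control and 0.441, 0.404 and 0.514 in dsfb. On the log2 scale it differed by -2.26 ± 0.17 (SE, n = 3 per group), a 4.78-fold lower ratio in dsfb. Scaled by exon length, Eif4g3 supplied 54.7, 59.1 and 62.3% in control and 22.5, 21.0 and 25.3% in dsfb of the summed level of the pair. The scaffold transcript that was the more abundant of the pair by length-scaled level was therefore Eif4g3 in each control library and Eif4g1 in each dsfb library. The ratio of Eif4g2 to Eif4g1 was also lower in dsfb, with a log2 difference of -0.71 ± 0.10 (SE, n = 3 per group). With 3 against 3 libraries the exact two-sided permutation test cannot give a p below 0.1. That value was reached by 10 of the 11 paralog pairs compared (Benjamini-Hochberg adjusted p = 0.11), those whose groups did not overlap. Single genes did not overlap between the groups in 74.7% of those tested, and the share among other gene pairs was not computed.

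**Figure D2:**
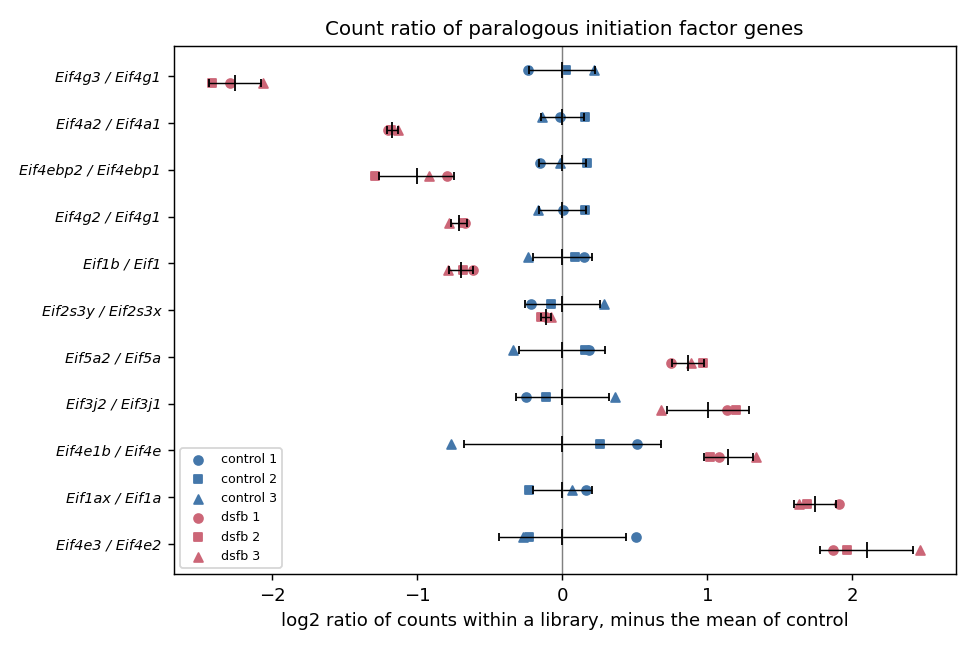
The log2 count ratio of 11 pairs of paralogous genes in each library is shown on the horizontal axis relative to the mean of the control libraries, with black bars for the group mean and SD (n = 3). Eif4g3 to Eif4g1 lies furthest to the left and Eif4e3 to Eif4e2 furthest to the right, and only Eif2s3y to Eif2s3x overlaps between the groups.

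The eIF4A helicases unwind mRNA ahead of the scanning ribosome, and they too shifted between paralogs. Eif4a1 (minus strand of chromosome 11, bases 69666936 to 69672423) was at 510.3, 463 and 352 in the control libraries and 710.5, 779 and 659.9 in the dsfb libraries (CPM) and rose 1.62-fold (log2 fold change 0.70, SE 0.15, edgeR adjusted p = 0.00421). Eif4a2 (plus strand of chromosome 16, bases 23107444 to 23114136) was at 491, 501 and 309.8 in the control libraries and 299, 334 and 292 in the dsfb libraries (CPM). It fell 1.41-fold (edgeR adjusted p = 0.043), with control replicate 3 inside the range of the dsfb libraries. The call for Eif4a2 was lost without any 1 of the libraries other than control replicate 3 (edgeR adjusted p = 0.0801 to 0.142), with limma-voom (0.0562) and with autosomal TMM (0.0609), upper-quartile (0.318) and library-size scaling (0.634). The ratio of Eif4a2 to Eif4a1 counts was steadier, at 0.962, 1.08 and 0.879 in control and 0.421, 0.428 and 0.443 in dsfb, a difference of -1.17 ± 0.09 (SE, n = 3 per group) on the log2 scale. Eif4a3, the helicase of the exon junction complex, was 1.24-fold lower (edgeR adjusted p = 0.0234), and its sign turned with library size as the only scaling (0.092). Its call was also lost with upper-quartile scaling (0.814) and without control replicate 2 (0.0548) or dsfb replicate 2 or 3 (0.0979 and 0.0553). The helicase cofactor genes Eif4b and Eif4h did not pass, with log2 fold changes of 0.19 (SE 0.07) and -0.15 (SE 0.09). Eif4b passed as higher in 5 alternatives, namely upper-quartile, library-size and autosomal TMM scaling, a mean of at least 1 CPM and limma-voom. The sign of Eif4h turned with upper-quartile (0.12) and library-size scaling (0.24), and with the latter it passed as higher (edgeR adjusted p = 0.0301).

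The stretches before the RefSeq starts of the helicase pair are given because the paralogs lie on different chromosomes and their transcripts moved in opposite directions. Both are from the RefSeq promoter table (GRCm38.p6), written 5′ to 3′ on the gene's own strand and ending where the first annotated exon begins. The Eif4a2 stretch is chr16:23107218-23107443 on the plus strand and the Eif4a1 stretch is chr11:69672424-69672673 on the minus strand. Capitals mark AACGG, a core of sites for MYB factors, and TGACG, a half-site for CREB and CREM factors, on either strand.
Eif4a2: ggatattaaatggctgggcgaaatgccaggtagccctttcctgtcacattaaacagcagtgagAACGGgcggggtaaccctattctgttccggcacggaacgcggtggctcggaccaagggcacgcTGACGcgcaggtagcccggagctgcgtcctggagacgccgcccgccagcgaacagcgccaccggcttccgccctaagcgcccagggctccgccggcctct
Eif4a1: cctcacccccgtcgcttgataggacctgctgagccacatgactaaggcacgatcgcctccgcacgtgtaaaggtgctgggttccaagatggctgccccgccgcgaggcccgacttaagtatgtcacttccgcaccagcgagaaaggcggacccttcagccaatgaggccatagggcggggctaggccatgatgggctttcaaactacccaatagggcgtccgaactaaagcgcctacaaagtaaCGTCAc
The Eif4a2 stretch held 1 AACGG and 1 TGACG, and the Eif4a1 stretch held 1 TGACG read on the other strand. AACTG, the other MYB core searched, was in neither. In the 250 bases before the start, AACGG occurred in 14.8% and TGACG in 17.8% of 27018 mouse promoters. Of the 43 members with an entry, AACGG was found in 3 of 21 that fell, 2 of 8 that rose and 4 of 14 that did not pass. AACTG was found in 6, 1 and 5 of these, against 39.1% of all promoters. TGACG was found in 10 of 21 that fell, 3 of 8 that rose and 6 of 14 that did not pass. The members' promoters held a median of 19 CG dinucleotides against 6 over all promoters. AACGG and TGACG each contain a CG, and no comparison matched for CG content was made. The full palindrome TGACGTCA was in 0 of the 43 and in 1.60% of all promoters. Such matches describe the letters in this window only. The windows of Eif4g3 and Eif1b lie wholly within annotated exons and are not printed.

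Among the cap-binding proteins the changes also differed by paralog. Eif4e2 (plus strand of chromosome 1, bases 87213914 to 87240488), whose product binds the cap but represses rather than promotes initiation, was at 181, 200.2 and 247 in the control libraries and 85.5, 81.2 and 79.6 in the dsfb libraries (CPM). It fell 2.55-fold (log2 fold change -1.35, SE 0.12, edgeR adjusted p = 6.16e-05). Eif4e, the canonical cap-binding protein, was at 217, 215 and 158 in the control libraries and 175, 183 and 156 in the dsfb libraries (CPM) and did not pass (log2 fold change -0.20, edgeR adjusted p = 0.221). Its control replicate 3 lay within the dsfb range, and without it Eif4e passed as lower (log2 fold change -0.37, edgeR adjusted p = 0.000424), whereas its sign turned under upper-quartile and library-size scaling.

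Eif4e3 and Eif4e1b were rare transcripts. Eif4e3, another cap-binding paralog, which shares 14.8% of its exonic bases with a same-strand gene, was at 3.68, 2.44 and 2.92 in the control libraries and 4.47, 4.53 and 6.32 in the dsfb libraries (CPM) and rose 1.70-fold (edgeR adjusted p = 0.0313). That call was lost without control replicate 2 (edgeR adjusted p = 0.11), without dsfb replicate 1, 2 or 3 (0.0502, 0.0519 and 0.105) and when low counts were kept (0.0912). Eif4e1b, a germ-line form of the cap-binding protein known from oocytes, was at 1.44, 1.20 and 0.417 in the control libraries and 1.73, 1.72 and 1.84 in the dsfb libraries (CPM). The groups did not overlap, but control replicate 3, with 9 counts, lay far below the other controls and the gene did not pass (log2 fold change 0.78, SE 0.43, edgeR adjusted p = 0.142). It passed with library-size scaling only (edgeR adjusted p = 0.043). Relative to Eif4e2, the Eif4e3 counts were higher in dsfb by 2.10 ± 0.31 (SE, n = 3 per group) on the log2 scale, the largest rise among the pairs, and relative to Eif4e the Eif4e1b counts were higher by 1.14 ± 0.40 (SE, n = 3 per group).

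Of the eIF4E inhibitors, 2 of 4 rose and none fell by edgeR, where 30.7% of all tested genes were higher and 36.2% lower. Eif4ebp1 (plus strand of chromosome 8, bases 27260329 to 27276674), the 4E-binding protein best known as a target of the mTOR kinase, was at 10.1, 8.22 and 9.60 in the control libraries and 22.2, 27.5 and 22.8 in the dsfb libraries (CPM). This was the largest rise among the members, 2.6-fold (log2 fold change 1.38, SE 0.16, edgeR adjusted p = 0.00023). Eif4ebp2, a second 4E-binding protein, was at 106, 109 and 111 in the control libraries and 149.6, 131 and 141 in the dsfb libraries (CPM) and rose 1.29-fold (edgeR adjusted p = 0.00477). The ratio of Eif4ebp2 to Eif4ebp1 was 10.5, 13.2 and 11.6 in control and 6.73, 4.77 and 6.17 in dsfb, lower in each dsfb library. Eif4ebp3, which shares 67.3% of its exonic bases with a same-strand gene, stayed under 1 CPM in all 6 libraries, and Eif4enif1, which encodes a transporter of eIF4E, had a log2 fold change of -0.01 (SE 0.09), which turned to 0.26 with upper-quartile and 0.38 with library-size scaling and then passed as higher (edgeR adjusted p = 0.0424 and 0.0124).

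Of the 7 start codon scanning and subunit joining genes 4 fell and 1 rose, or 71.4% called against 66.9% of all tested genes. This role group held both the second largest fall and the second largest rise. Eif1b (plus strand of chromosome 9, bases 120492232 to 120495330), a paralog of the start codon fidelity factor eIF1, was at 187, 194 and 168 in the control libraries and 67.7, 71.0 and 66.5 in the dsfb libraries (CPM). It fell 2.68-fold with little spread among libraries (log2 fold change -1.42, SE 0.09, edgeR adjusted p = 7.76e-06), the smallest p of the family, and shares 12.7% of its exonic bases with an antisense gene. Eif1 itself was at 283, 306 and 331 in the control libraries and 174, 191 and 192 in the dsfb libraries (CPM) and fell 1.65-fold (edgeR adjusted p = 0.000337). The ratio of Eif1b to Eif1 was lower in dsfb, with a log2 difference of -0.70 ± 0.13 (SE, n = 3 per group).

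The 2 genes for eIF1A, which keeps the scanning complex open, moved in opposite directions. X-linked Eif1ax (plus strand of chromosome X, bases 159372178 to 159389928) was at 72.4, 61.5 and 53.4 in the control libraries and 146, 142 and 120.1 in the dsfb libraries (CPM) and rose 2.18-fold (log2 fold change 1.12, SE 0.13, edgeR adjusted p = 0.000228). Autosomal Eif1a was at 121, 136 and 95.8 in the control libraries and 72.8, 83.0 and 72.7 in the dsfb libraries (CPM) and fell 1.54-fold (edgeR adjusted p = 0.00464), a call lost with upper-quartile (0.0544) and library-size scaling (0.179). The ratio of Eif1ax to Eif1a counts was 0.597, 0.454 and 0.557 in control and 2.00, 1.71 and 1.65 in dsfb, a 3.34-fold higher ratio. By length-scaled level Eif1ax supplied 32.1, 26.4 and 30.6% in control and 61.3, 57.6 and 56.7% in dsfb of the pair, so the larger source was Eif1a in each control library and Eif1ax in each dsfb library. Reads of such similar copies could be divided between them in counting.

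Eif5, which encodes the GTPase activator that makes eIF2 hydrolyse its GTP at the start codon, was at 779, 834 and 800.2 in the control libraries and 345, 355 and 389 in the dsfb libraries (CPM) and fell 2.22-fold (log2 fold change -1.15, SE 0.09, edgeR adjusted p = 2.98e-05). Eif5b, the GTPase that joins the ribosomal subunits, did not pass, and neither did Eif1ad. Eif5b was at 218 ± 27.6 in control and 227 ± 23.7 CPM in dsfb (SD, n = 3). Eif1ad was at 37.5 ± 0.72 in control and 38.7 ± 3.08 CPM in dsfb. Both passed as higher with upper-quartile (edgeR adjusted p = 0.0307 and 0.0199) and library-size scaling (0.00605 and 0.00519). Their signs turned with RLE scaling, with DESeq2, with low counts kept and without control replicate 1. That of Eif5b also turned without dsfb replicate 1.

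**Figure D3:**
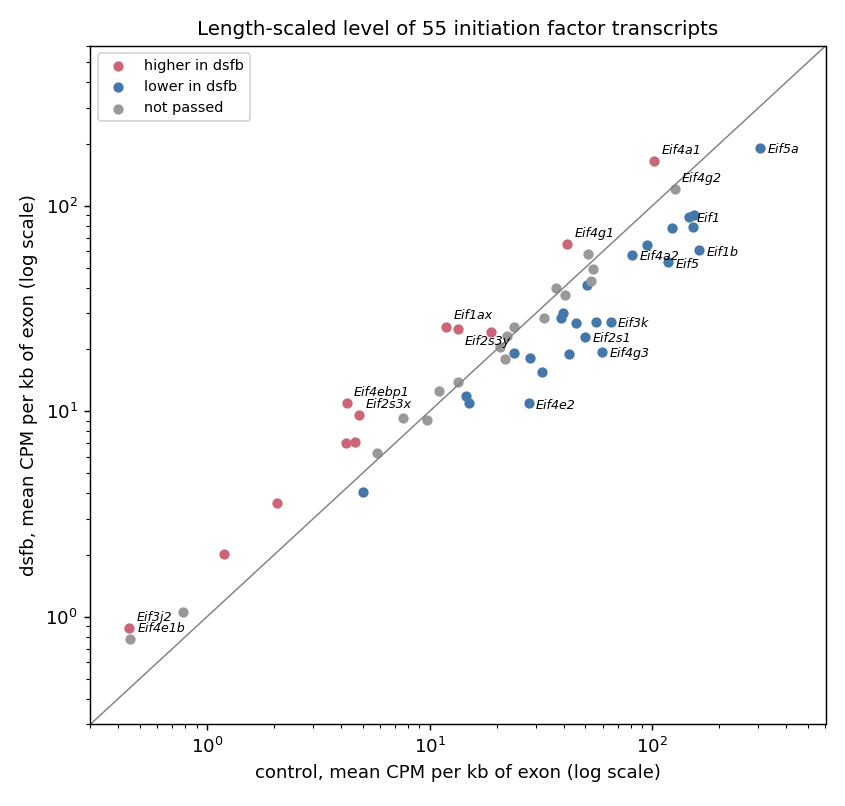
The mean level of each of the 55 members, as CPM per kb of annotated exon on log scales, is shown for control on the horizontal axis and dsfb on the vertical axis, coloured by the edgeR call, with a line of equal level. Eif4a1 and Eif4g1 lie above the line and Eif4g3, Eif1b and Eif5 below it, while Eif5a is highest in both groups.

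The role of eIF2 and initiator tRNA delivery, which also takes Eif2d and Eif2a, had 2 of 6 genes up, 3 down and 1 not passing. That is 83.3% called, against 66.9% of all tested genes. The subunit genes of eIF2 itself did not move together. Eif2s1 (plus strand of chromosome 12, bases 78861819 to 78887010), the alpha subunit whose phosphorylation lowers initiation, was at 242, 270.3 and 229 in the control libraries and 117, 122 and 103 in the dsfb libraries (CPM) and fell 2.17-fold (log2 fold change -1.12, SE 0.10, edgeR adjusted p = 6.46e-05). Eif2s2, the beta subunit, fell 1.37-fold (edgeR adjusted p = 0.0158), a call lost without control replicate 2 (0.0536) or dsfb replicate 3 (0.0773) and with upper-quartile (0.265) or library-size scaling (0.712). Both genes for the gamma subunit, which binds the initiator tRNA, rose. X-linked Eif2s3x (minus strand of chromosome X, bases 94188707 to 94212862) was at 22.4, 19.4 and 13.1 in the control libraries and 36.1, 39.6 and 33.8 in the dsfb libraries (CPM) and rose 1.99-fold (log2 fold change 0.99, SE 0.20, edgeR adjusted p = 0.00333).

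Y-linked Eif2s3y (plus strand of chromosome Y, bases 1010543 to 1028847) was at 60.0, 57.2 and 49.6 in the control libraries and 104, 111 and 99.1 in the dsfb libraries (CPM) and rose 1.88-fold (log2 fold change 0.91, SE 0.10, edgeR adjusted p = 0.000158). Unlike the other 10 pairs, the ratio of the Y-linked to the X-linked gene overlapped between the groups, at 2.67, 2.94 and 3.79 in control and 2.87, 2.80 and 2.93 in dsfb (exact permutation p = 0.7, adjusted 0.7). The difference was -0.11 ± 0.15 (SE, n = 3 per group) on the log2 scale, and it turned to 0.032 without control replicate 3. The coding sequences of the copies are closely alike, so reads may have been divided between them. Length-scaled levels, as mean CPM per kb of exon, were 49.9 in control and 23.0 in dsfb for Eif2s1, 38.9 in control and 28.5 in dsfb for Eif2s2, 4.80 in control and 9.57 in dsfb for Eif2s3x and 13.4 in control and 25.1 in dsfb for Eif2s3y. In control the alpha subunit transcript was thus above the sum of the gamma subunit transcripts, and in dsfb it was below it.

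Of the factors described as able to deliver initiator tRNA without eIF2, Eif2d was 1.24-fold lower (edgeR adjusted p = 0.0263, with its sign turned to 0.087 by library-size scaling and its call lost under the replicate block, 0.0507) and Eif2a did not pass (log2 fold change 0.30, SE 0.17). The call for Eif2d was also lost with upper-quartile scaling (0.807), and without control replicate 2 (0.0697) or dsfb replicate 1, 2 or 3 (0.0939, 0.0931 and 0.094). Eif2a passed as higher with upper-quartile (edgeR adjusted p = 0.0176) and library-size scaling (0.0105) and without control replicate 1 (0.046).

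The exchange factor eIF2B reloads eIF2 with GTP. Of its 5 subunit genes 3 fell and 1 rose, where 36.2% of all tested genes were lower and 30.7% higher. Eif2b5, its catalytic epsilon subunit (plus strand of chromosome 16, bases 20498817 to 20509323), was at 135, 146 and 154 in the control libraries and 76.2, 67.6 and 68.0 in the dsfb libraries (CPM) and fell 2.05-fold (log2 fold change -1.04, SE 0.09, edgeR adjusted p = 4.83e-05). Eif2b4, the delta subunit, fell 2.05-fold from 82.8 ± 15.7 to 40.4 ± 5.47 CPM (SD, n = 3), and shares 7.85% of its exonic bases with a gene on the opposite strand. Eif2b3, the gamma subunit and partner of epsilon, instead rose 1.54-fold from 30.1 ± 3.91 to 46.4 ± 0.668 CPM (edgeR adjusted p = 0.00268). Eif2b1, the alpha subunit, was 1.24-fold lower (edgeR adjusted p = 0.0334), which was not held with upper-quartile (0.807) and autosomal TMM scaling (0.0614) and without any 1 library other than control replicate 3 (0.058 to 0.135), and whose sign turned with library-size scaling (0.083). Eif2b2, the beta subunit, did not pass (log2 fold change -0.29, edgeR adjusted p = 0.0688), passed as lower with RLE scaling (0.0316) and DESeq2 (0.0203), and had the opposite sign with library-size scaling (0.11).

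Of the 4 kinases that phosphorylate eIF2 alpha under stress, 2 rose and 1 fell, where 30.7% of all tested genes were higher and 36.2% lower. Eif2ak4, the GCN2 kinase that senses amino acid shortage (plus strand of chromosome 2, bases 118388618 to 118475234), was at 36.3, 32.1 and 25.6 in the control libraries and 49.9, 54.2 and 53.5 in the dsfb libraries (CPM) and rose 1.68-fold (log2 fold change 0.74, SE 0.14, edgeR adjusted p = 0.00226). Eif2ak3, the PERK kinase of the endoplasmic reticulum stress response, was at 13.3, 13.5 and 10.5 in the control libraries and 22.1, 21.9 and 20.6 in the dsfb libraries (CPM) and rose 1.73-fold (edgeR adjusted p = 0.00293). In both genes each dsfb library lay above each control library. Eif2ak1, the haem-regulated kinase, was 1.23-fold lower (edgeR adjusted p = 0.0178), and its sign turned with library-size scaling (0.095). Its call was lost with upper-quartile scaling (0.851), and without control replicate 2 (0.0566) or dsfb replicate 1, 2 or 3 (0.0599, 0.0561 and 0.0853). Eif2ak2, the double-stranded RNA kinase PKR, did not pass (29.8 ± 2.80 in control and 32.2 ± 3.71 CPM in dsfb). It passed as higher with upper-quartile (edgeR adjusted p = 0.0335) and library-size scaling (0.0142).

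The eIF3 complex, the largest of the factors, was lower for most of its subunits with TMM. With upper-quartile and library-size scaling only the falls of Eif3b, Eif3c, Eif3e, Eif3f, Eif3h and Eif3k were kept. Of its 14 genes 9 fell, 1 rose and 4 did not pass (median log2 fold change -0.51), and of the 12 subunit genes other than the loosely bound j subunit 9 fell and 0 rose by edgeR with TMM, where 36.2% of all tested genes were lower and 30.7% higher. Eif3a passed as higher with upper-quartile (log2 fold change 0.38, edgeR adjusted p = 0.00436) and library-size scaling (0.50, 0.00127), and Eif3l with the latter alone (0.26, 0.0191). Eif3k (minus strand of chromosome 7, bases 28971372 to 28981864), a peripheral subunit, was at 159.7, 173 and 194 in the control libraries and 73.1, 81.0 and 66.5 in the dsfb libraries (CPM) and fell the most, 2.39-fold (log2 fold change -1.25, SE 0.11, edgeR adjusted p = 5.1e-05). Eif3e, a subunit that was first found as a mouse mammary tumour virus integration site, was at 304, 333 and 214 in the control libraries and 131, 137 and 116 in the dsfb libraries (CPM) and fell 2.21-fold (edgeR adjusted p = 0.000654). Control replicate 3 was the lowest control for this gene but still lay above each dsfb library.

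The core subunits of eIF3 were not alike. Eif3b fell 1.94-fold (512 ± 102 in control and 263 ± 13.9 CPM in dsfb) and Eif3c 1.70-fold (538 ± 44.0 in control and 316 ± 24.2 CPM in dsfb), whereas Eif3a, the scaffold subunit, did not pass (324 ± 7.64 in control and 348 ± 21.5 CPM in dsfb; log2 fold change 0.10, SE 0.08). The subunit genes Eif3f and Eif3h, which share a protein fold, fell 1.69-fold and 1.57-fold. Eif3g, Eif3d and Eif3i fell 1.47-fold, 1.37-fold and 1.32-fold, and their calls were lost with upper-quartile and library-size scaling (edgeR adjusted p = 0.0825 to 0.921), that of Eif3d also without dsfb replicate 2 (0.0556) or 3 (0.0603). Eif3d shares 43.3% of its exonic bases with an antisense gene. Eif3l and Eif3m did not pass, with log2 fold changes of -0.13 (SE 0.08) and -0.30 (SE 0.12), and their signs turned with library-size scaling (0.26 and 0.087). Eif3m passed as lower with the replicate block (edgeR adjusted p = 0.0275), with RLE scaling, with low counts kept, with DESeq2 and without control replicate 3 (0.0181, 0.0416, 0.00747 and 3.93e-05).

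The j subunit has 2 genes in the mouse. Eif3j1 was at 66.1, 62.4 and 41.2 in the control libraries and 57.0, 50.2 and 52.3 in the dsfb libraries (CPM) and did not pass, while without control replicate 3, its lowest library, it passed as lower (log2 fold change -0.30, edgeR adjusted p = 0.00542), with a sign that turned under upper-quartile and library-size scaling. Eif3j2, a rare transcript, was at 1.07, 1.11 and 1.02 in the control libraries and 2.44, 2.24 and 1.62 in the dsfb libraries (CPM) and rose 1.96-fold (edgeR adjusted p = 0.0146). That call was lost without dsfb replicate 1 (0.0637) or 2 (0.0528), when low counts were kept (0.0719) and with DESeq2 (0.059). The ratio of Eif3j2 to Eif3j1 counts was 0.0165, 0.0182 and 0.0253 in control and 0.0432, 0.0451 and 0.0315 in dsfb, higher in each dsfb library.

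Eif5a, whose product carries hypusine and helps the ribosome through difficult peptide bonds, was the highest member by length-scaled level in both groups (305 in control and 192 in dsfb CPM per kb). It was at 707, 719.8 and 746 in the control libraries and 445, 451 and 472 in the dsfb libraries (CPM) and fell 1.59-fold (log2 fold change -0.67, SE 0.08, edgeR adjusted p = 0.000301). Its paralog Eif5a2 was at 60.9, 60.9 and 44.6 in the control libraries and 56.6, 66.8 and 66.3 in the dsfb libraries (CPM) and did not pass, and the ratio of Eif5a2 to Eif5a was higher in dsfb by 0.87 ± 0.18 (SE, n = 3 per group) on the log2 scale. Eif6, which keeps the large ribosomal subunit from joining too early, did not pass (64.6 ± 6.15 in control and 69.4 ± 3.38 CPM in dsfb). Eif5a2 and Eif6 passed as higher with upper-quartile (edgeR adjusted p = 0.0226 and 0.0082) and library-size scaling (0.011 and 0.00196). After Eif5a, the order of length-scaled levels changed between the groups. Eif1b, Eif3c and Eif3b came next in control, at 163, 153 and 153 CPM per kb, and these 3 neighbours lie within their spread. Eif4a1, Eif4g2 and Eif3c came next in dsfb, at 165, 121 and 90.0 CPM per kb, with Eif3c and its neighbour Eif1 (88.5) within each other's spread. Eif4a1 moved from rank 9 to rank 2 and Eif4g3 from rank 13 to rank 32 of 55.

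Genes outside the symbol rule that act on initiation were taken as a list of 35, of which 34 were found and tested. Among these 17 rose, 7 fell and 10 did not pass (median log2 fold change 0.37), or 24 of 34 called, a share near the background of 66.9% of all tested genes. This split too moved with scaling. It was 24 rises and 5 falls with upper-quartile, 25 and 5 with library-size and 13 and 9 with RLE scaling. Larp1, which binds mRNAs of the translation machinery and represses them when mTOR is off, was at 678, 750.3 and 940.2 in the control libraries and 279.9, 254 and 302 in the dsfb libraries (CPM) and fell 2.83-fold (log2 fold change -1.50, SE 0.14, edgeR adjusted p = 7.14e-05). Mcts2, a gene related to the initiation and recycling factor MCTS1, was at 25.8, 26.9 and 27.7 in the control libraries and 9.55, 11.1 and 12.0 in the dsfb libraries (CPM) and fell 2.46-fold (edgeR adjusted p = 0.000166). Pdcd4, an inhibitor of eIF4A, was at 162, 174 and 192 in the control libraries and 107, 102 and 96.4 in the dsfb libraries (CPM) and fell 1.73-fold (edgeR adjusted p = 0.000212). Impact, an inhibitor of GCN2 activation, was at 20.0, 21.9 and 15.7 in the control libraries and 41.7, 44.3 and 40.1 in the dsfb libraries (CPM) and rose 2.19-fold (edgeR adjusted p = 0.000372). These 4 genes were named for having the smallest p of the list. The groups did not overlap in 28 of the 34 list genes, against 74.7% of all tested genes.

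**Figure D4:**
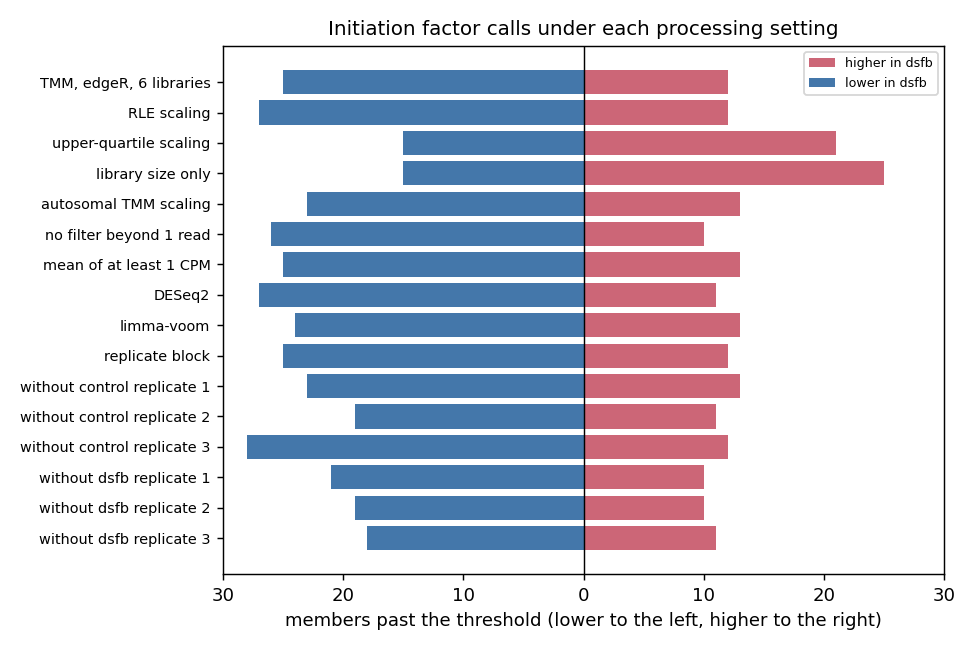
Bars give the number of the 55 members called lower (left, horizontal axis) and higher (right) in dsfb under each processing setting on the vertical axis. Most settings give more falls than rises, as in the first bar with 25 and 12, and upper-quartile and library-size scaling give more rises, 21 and 25, than the 15 falls of each.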

How the data were processed

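Each of the 6 libraries (3 control, 3 dsfb) has 1 column of raw counts per gene in the deposited table, made from polyadenylated testis RNA using the NEBNext Ultra library kit (per the labels). STAR 2.6.0 and the mm10 build are named, per the submitters' processing notes. The counter, its annotation and its strandedness were not given in the sources used here. Positions, exons and symbols come from GENCODE M21 (GRCm38), which held 55227 of the 55487 identifiers. Of the 55 members 22 share exonic bases with another gene, 14 of them on the opposite strand, and their values are uncertain to that extent.

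Counts were fitted with edgeR 4.0.16 in R 4.3.3 (filterByExpr by group, TMM, glmQLFit, glmQLFTest, group as the only term), with Benjamini-Hochberg adjustment over all tested genes. CPM are TMM-scaled, the SE divides the size of the log2 fold change by the root of F, and length-scaled levels are CPM per kb of the union of annotated exons. Ratios within a library add 0.5 to each count, and 11 pairs, each gene with at least 10 counts in 1 or more libraries, were tested by exact permutation. Library depth (15335130 to 27707291 reads) limits precision most for members near 1 CPM.

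Values in every library are given for paralog pairs, the 5 largest rises and falls with a mean of at least 1 CPM, the smallest p of each role group, sex-linked members and 4 genes of the pathway list; values of other members were added after they were seen. Members, lists and tests were chosen with earlier results of these data known. Alternatives were other scalings and filters, DESeq2 1.42.0, limma-voom (limma 3.58.1), leaving out each library and a replicate block. Libraries of a group differed from each other by more than counting noise (chi-square per degree of freedom 3.82 to 65.0).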

Additional observations from a re-analysis of the deposited data

How the results depend on the processing

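Of the 37 called members, 25 kept their direction and call in all 15 alternative settings. Member counts moved by more than 1.5 times under 2 scalings, to 21 rises and 15 falls (upper quartile) and to 25 rises and 15 falls (library size only), against 12 and 25. The log2 fold changes of all genes move together between scalings, by 0.28 and 0.40 at the median here. Signs turned for 6 members under the former and 12 under the latter. In the same order, the log2 fold changes of Eif3j1 (0.19 and 0.30), Eif3l (0.15 and 0.26), Eif4h (0.12 and 0.24), Eif4enif1 (0.26 and 0.38), Eif4e (0.073 and 0.19) and Eif4g2 (0.21 and 0.33) turned from below to above 0. Of these, Eif4enif1 passed as higher under both, and Eif3l, Eif4h and Eif4g2 under library size only. Leaving out 1 library at a time gave 10 to 13 rises and 18 to 28 falls among the members. The difference in the log2 ratio of Eif2s3y to Eif2s3x then ranged from -0.22 to 0.032, and the differences of the other 10 pairs kept their sign, as they did with 2 counts added. The replicate numbers in the titles do not pair the samples by the labels, and the deviations of same-numbered libraries correlated at 0.083, 0.102 and 0.143, although each library correlated best with its own number. With the replicate block 12 members rose and 25 fell, as without it; the call of Eif2d was lost and Eif3m was gained. Depth limits Eif4ebp3, Eif4e1b and Eif3j2 most, which had a mean near or under 2 CPM.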
